A study of Mus musculus with 3 samples.

Results

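Foxd1-positive cultured mouse kidney cells were taken as the wells of both cultured plates that held at least 2 counts of Foxd1 and at least 3 of Col1a1, a fibrillar collagen of mesenchyme, with no count of the epithelial genes Epcam, Cdh16 and Cldn6. The rule was applied to wells labelled as single cells with at least 1000 counts of nuclear-encoded genes and at most 30% mitochondrial counts. It found 105 wells among the 837 kept wells of the series, 56 of 200 on the E12.5 cultured plate (28.0%, exact binomial 95% interval 21.9 to 34.8) and 49 of 300 on the E11.5 cultured plate (16.3%, 12.3 to 21.0). These wells are called members below. They were selected on their counts of Foxd1, Col1a1 and the 3 epithelial genes, so those values are given as a description only. The Col1a1 limit took out few cultured wells: 7 of 200 kept wells of the E12.5 cultured plate and 0 of 300 of the E11.5 cultured plate fell below it. On the E11.5 cultured plate it therefore selected nothing and does not by itself mark a well as mesenchyme.

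Foxd1 encodes a forkhead transcription factor of the stromal progenitors that surround the cap mesenchyme in the outer zone of the developing kidney. Its descendants include interstitial fibroblasts, mesangium, pericytes and renin cells, and the stroma in turn acts on the nephron progenitors and on branching of the ureteric bud through retinoic acid and secreted or cell-surface signals. Stroma of the outer cortex, of the medulla and around the ureter differ in their genes.

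Transcripts were counted with molecular identifiers in sorted cells of embryonic kidney by SORT-seq, which places 1 cell in each well of a 384-well plate. All mice were C57BL/6 and carried LGR6-EGFP-IRES-CreERT2, an allele that puts EGFP and a tamoxifen-dependent Cre under the Lgr6 gene; the cultured plates also carried the ROSA26-tdTomato reporter, which the uncultured plate did not. Explants of E12.5 kidney (5 days of culture) and of E11.5 kidney (7 days by the title, 5 by the stage label) were kept in a DMEM-based medium that held 10% serum from fetal calves and 1% antibiotics, and all tissue was dissociated with collagenase. The series has 1 plate of each kind, the uncultured one being E11.5 kidney. The sources used here give neither the gate of the sort nor the number of embryos pooled. Embryonic stage, time in culture and plate cannot be told apart, both cultured plates were sequenced in 1 run by their run codes, and with 1 plate per group no test between groups was possible.

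A Foxd1 count of 2 is reached more easily in a deep well, so each member was set beside a well of the same plate that passed the Col1a1 and epithelial limits, held no Foxd1 count and was nearest in its total. All 56 members of the E12.5 cultured plate and 48 of 49 of the E11.5 cultured plate found a match close enough; the 1 left out had 78448 counts, of which 31.1 were Foxd1. Median totals were 9820 counts in members and 9783 in matched wells on the E12.5 plate, and 9742 and 9740 on the E11.5 plate. Mitochondrial shares were low on both sides, with medians of 3.22% and 3.82% on the E12.5 plate and 2.92% and 3.60% on the E11.5 plate. Levels are given in CPM, counts scaled to a total of 1000000 nuclear counts, pooled over the wells compared; a fold is the ratio of pooled CPM and the range after it is its exact 95% interval (Clopper-Pearson), taken from how the gene's counts split between both groups. These intervals cover counting error only and not the spread between cells, embryos or plates.

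Foxd1 in members ran from 114 CPM in the lowest well through a median of 395 to 2252 in the highest on the E12.5 cultured plate, and from 92.9 through 339 to 1170 on the E11.5 cultured plate. Much of the group lay near the limit: 13 and 19 members held exactly 2 counts, and 25 and 35 wells that passed the other limits held exactly 1 and were left out of both groups. Only 8 and 2 members held 10 or more. A further 11 of 67 and 10 of 59 kept wells with at least 2 Foxd1 counts failed the Col1a1 or epithelial limits. The 384 well names are the same on all plates, and 8 of them were members on both cultured plates.

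**Figure D1:**
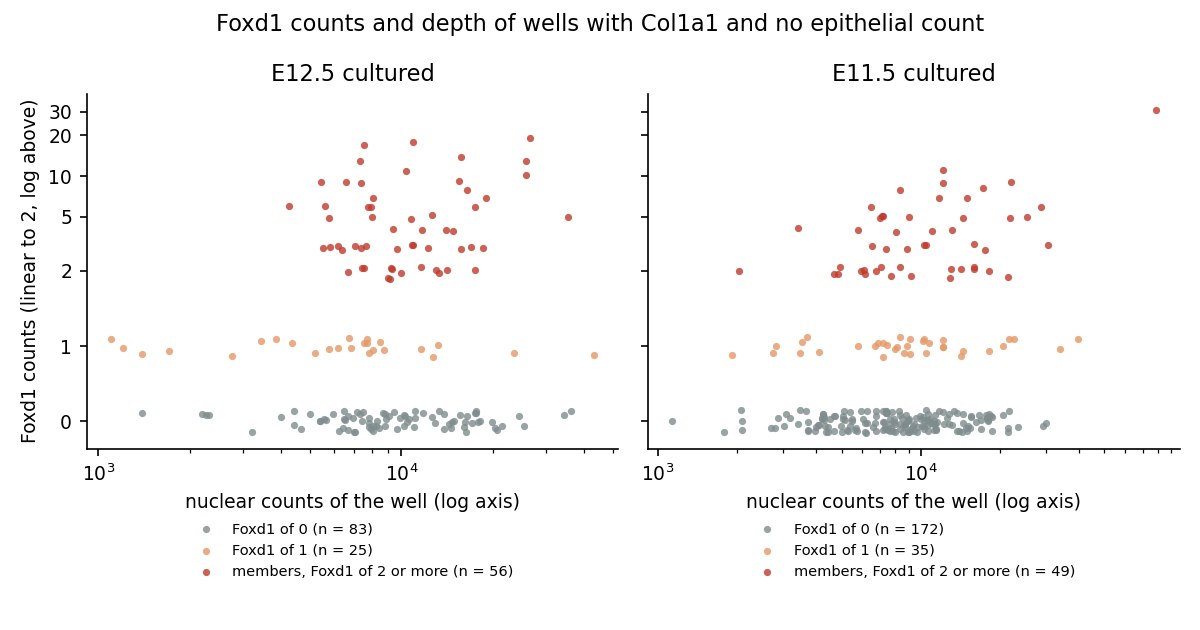
Foxd1 counts (linear to 2, log above) against the nuclear counts of the well (log axis) for every kept well with Col1a1 and no epithelial count on the E12.5 and E11.5 cultured plates. Points are wells, moved slightly up or down so that they do not cover each other; members (56 and 49) lie at 2 or more and start at deeper totals (4247 and 2033 counts) than the 83 and 172 wells at 0.

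Foxd1 was also counted in wells with markers of other cell types. A macrophage well without an epithelial count also passes the limits of the Col1a1 wells if it holds 3 Col1a1 counts. Every kept well of the E11.5 cultured plate held that many, so the groups compared here can share wells and are not independent. Of wells with at least 3 of 6 macrophage genes 1 of 6 on the E12.5 plate and 5 of 20 on the E11.5 plate (4 of them with 2 or more) held a Foxd1 count (medians of 14214 and 11653 counts), and of wells with epithelial markers 1 of 10 and 2 of 7 (medians of 8794 and 13380 counts). Among wells that passed the Col1a1 and epithelial limits it was 81 of 164 (49.4%) and 84 of 256 (32.8%), at medians of 8822 and 8607 counts. Thinned to 3000 counts a well, the expected shares were 8.20% and 16.6% for macrophage wells, 8.15% and 5.22% for epithelial wells and 31.8% and 18.1% for the Col1a1 wells. Macrophage wells held 124 CPM of Foxd1 on the E12.5 plate, all in 1 well, against 190 CPM in Col1a1 wells. On the E11.5 plate they held 154 CPM (exact Poisson 95% interval 113 to 203), beside 97.0 CPM (85.4 to 109.6) in Col1a1 wells there. Of those 48.1 counts at least 21.1 lay in 1 of the 20 wells, since the smallest fractional count on that plate was 21.1. The pooled level thus leans on 1 well, and the thinned share was close to that of the Col1a1 wells. Of the control wells 0 of 15 on each plate held a Foxd1 count, which allows a share of up to 20%, but their median depth was 129 and 150 counts.

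Apart from the genes of the rule, 7664 genes on the E12.5 plate and 7154 on the E11.5 plate had at least 30 counts in members and matched wells together. Members were at least 2-fold higher for 236 of them (3.08%) on the E12.5 plate and for 218 (3.05%) on the E11.5 plate, and at least 2-fold lower for 263 (3.43%) and 252 (3.52%). By any size, 48.8% and 50.4% of genes were higher in members. Of 6778 genes that reached 30 counts on both plates, 21 (0.31%) were at least 2-fold higher in members on both, 40 (0.59%) at least 2-fold lower on both, and 19 (0.28%) differed by at least 2-fold in opposite directions. The counts of 16 of the 21 and 26 of the 40 were spread over wells, with the gene found in at least 25% of the higher group's wells and no well holding over 25% of its counts. The other 5 higher genes were Podxl, Bhlhe40, Ankrd37, Psrc1 and Cxcl13; all Podxl counts of E12.5 members came from 1 well.

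**Figure D2:**
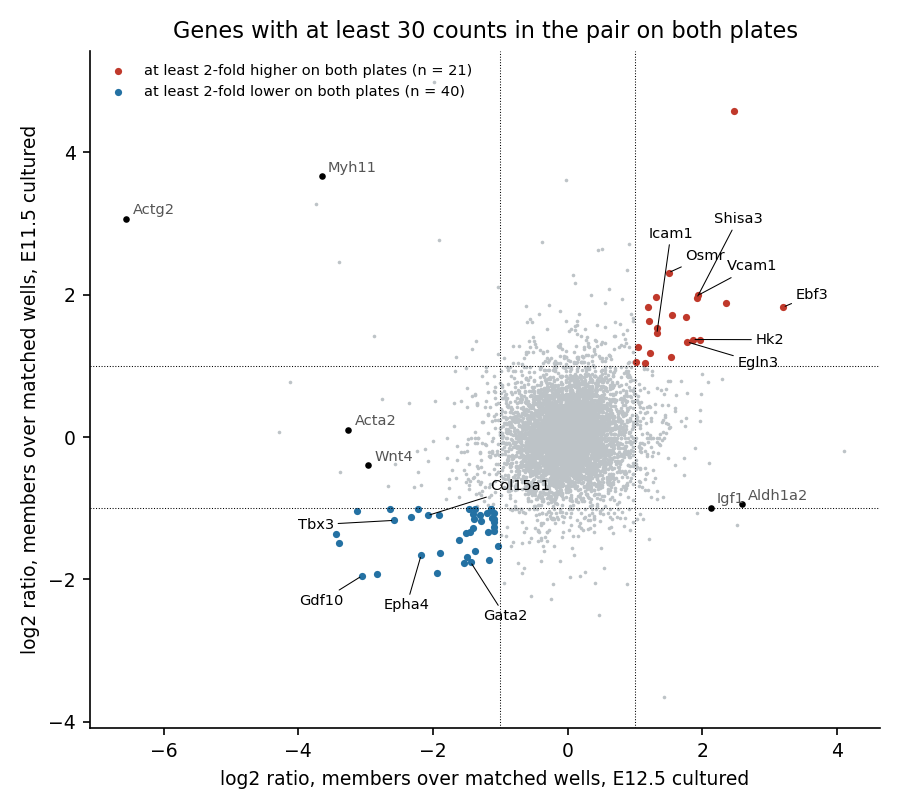
Each point is 1 of 6778 genes, placed by its log2 ratio of pooled CPM, members over matched wells, on the E12.5 cultured plate (x axis) and the E11.5 cultured plate (y axis); dotted lines mark 2-fold. The 21 genes at the upper right and the 40 at the lower left are the ones called on both plates, while Acta2, Actg2, Myh11, Wnt4, Aldh1a2 and Igf1 (black) lie far out on 1 plate or change side.

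Members resembled each other beyond the genes of the rule. When members and matched wells of a plate were thinned to a common depth and compared over 1000 variable genes without the rule genes, members made up 70.0% of the 10 nearest wells of a member on the E12.5 plate and 66.6% on the E11.5 plate. Around matched wells the shares were 41.3% and 41.5%, with 50% of all wells being members. The depth was 4247 counts on the E12.5 plate (112 wells) and 3000 on the E11.5 plate, where 47 members and 94 wells in all were used.

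Shisa3, which encodes a small membrane protein that holds back Wnt and FGF receptors, was the most widely found of the higher genes. On the E12.5 cultured plate its level by well ran from 0 through a median of 734 to 4909 CPM in members and from 0 through 129 to 2356 CPM in matched wells. On the E11.5 cultured plate the same figures were 0, 658 and 3114 CPM in members and 0, 68.3 and 1593 CPM in matched wells. The groups overlapped on both plates, but 52 of 56 and 44 of 49 members held a Shisa3 count against 41 of 56 and 26 of 48 matched wells. Pooled, Shisa3 was 892 against 236 CPM (3.77-fold, 3.15 to 4.54) and 725 against 187 CPM (3.88-fold, 3.13 to 4.87). Wells with exactly 1 Foxd1 count lay between, at 660.4 and 279 CPM. Counts by well cover all 49 members of the E11.5 plate, while pooled levels cover the 48 with a match.

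Ebf3, a helix-loop-helix factor of the early B-cell factor family, was among the most different transcription factors. It had been a leading gene of Foxd1 cells in an earlier analysis of these data, and so gives no independent support here. It was 115 against 12.52 CPM on the E12.5 plate (9.18-fold, 4.43 to 22.0) and 89.1 against 25.1 CPM on the E11.5 plate (3.55-fold, 1.93 to 6.95). A count was found in 25 of 56 members and 7 of 56 matched wells on the first plate, and in 21 of 49 and 7 of 48 on the second, so most wells of either kind held none. Its relative Ebf1 was 234 against 93.9 CPM (2.50-fold, 1.84 to 3.42) and 153 against 95.1 CPM (1.61-fold, 1.13 to 2.31). Twist1, a helix-loop-helix factor of mesenchyme, was 44.4 against 21.9 CPM (2.03-fold, 1.04 to 4.15) and 116 against 55.6 CPM (2.08-fold, 1.34 to 3.31). Mecom, a zinc-finger factor, was 2.28-fold (1.22 to 4.50) and 3.55-fold (1.49 to 9.71) higher.

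Over the list of stromal transcription factors the median shift was small. On the E12.5 plate 7 of 33 measured were at least 2-fold higher in members and 0 lower by as much (3.08% and 3.43% of all genes were). On the E11.5 plate 5 of 33 were higher by as much and 2 lower (3.05% and 3.52% of all genes were). Of 32 members of that list measured on both plates 14 were above 1-fold on both and 3 below, beside 26.3% and 26.6% of all genes. Of these 32, 2, Ebf3 and Twist1, were at least 2-fold higher on both, beside 0.31% of all genes. The median log2 ratio was 0.29 on the E12.5 plate and 0.18 on the E11.5 plate, beside -0.01 and 0.02 over all 6778 genes. Osr1, a zinc-finger factor of the intermediate mesoderm, was 127 against 57.9 CPM (2.20-fold, 1.47 to 3.33) and 69.5 against 35.9 CPM (1.94-fold, 1.10 to 3.51). Nr2f2, an orphan nuclear receptor of mesenchyme, was found in nearly every well and was 1.39-fold (1.27 to 1.52) and 1.32-fold (1.19 to 1.45) higher. Foxc2 reached 2-fold on the E11.5 plate alone, at 194 against 75.4 CPM (2.58-fold, 1.79 to 3.77) beside 204 against 169 CPM (1.21-fold, 0.928 to 1.57) on the E12.5 plate; the difference between plates was not tested.

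Among the other higher genes that were spread over wells, Vcam1, an adhesion receptor for leukocyte integrins, was 53.6 against 14.1 CPM (3.81-fold, 1.79 to 9.01) and 42.8 against 10.8 CPM (3.97-fold, 1.58 to 11.9). It was counted in 20 of 56 members and 7 of 56 matched wells, and in 16 of 49 and 3 of 48. Icam1, a related adhesion receptor, was 70.5 against 28.2 CPM (2.50-fold, 1.42 to 4.58) and 83.8 against 30.5 CPM (2.75-fold, 1.55 to 5.10). Osmr, the receptor chain for oncostatin M, was 2.83-fold (1.28 to 6.86) and 4.97-fold (2.29 to 12.3) higher, but its log2 ratio was 0.37 on the E12.5 plate without wells over 1000 CPM of other cell types' markers. Il33, an alarmin cytokine, was 126 against 61.1 CPM and 155 against 64.6 CPM (2.06-fold, 1.39 to 3.10, and 2.40-fold, 1.61 to 3.65). Cebpd, a leucine-zipper factor of the acute-phase response, was 2.21-fold (1.43 to 3.49) and 2.05-fold (1.42 to 3.02) higher. Igfbp3, which binds insulin-like growth factors, was 72.0 against 31.3 CPM and 271 against 87.9 CPM (2.30-fold, 1.34 to 4.10, and 3.09-fold, 2.22 to 4.34). Arrdc3, Nxph4, Ubr7 and Sertad4 had folds between 2.17 and 3.92 over both plates.

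Genes of the response to low oxygen and of glycolysis were higher in members as a group. Of 20 list genes measured on both plates, 20 had a ratio above 1 on both, where 26.3% of all 6778 genes did. At least 2-fold higher were 4 of 20 on the E12.5 plate and 8 of 21 on the E11.5 plate, beside 3.08% and 3.05% of all genes. Egln3, Ankrd37 and Hk2 were at least 2-fold higher on both, beside 0.31% of all genes. The median log2 ratio was 0.66 and 0.81. The summed level of the list by well ran from 2007 through a median of 11972 to 30871 CPM in E12.5 members and from 1301 through 6450 to 27688 CPM in matched wells. On the E11.5 plate it ran from 2224 through 13712 to 35376 CPM in members and from 1529 through 7085 to 25787 CPM in matched wells. Both groups thus held wells with low and with high levels, and the groups overlapped. Wells matched on the list itself as well as on depth (49 and 44 pairs) had, by that construction, smaller medians of 0.44 and 0.11; Shisa3 then had log2 ratios of 1.2 and 2.15, Ebf3 of 3.68 and 1.24, and Gata2 of -1.69 and -0.89, and 6 of the 21 higher and 14 of the 40 lower genes were again called on both plates. Without wells with 3 or more counts of other cell types' markers 18 and 27 pairs were left, and the list's median was -0.41 on the E12.5 plate and 1.02 on the E11.5 plate.

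Hk2, the inducible hexokinase, was 96.6 against 26.6 CPM (3.63-fold, 2.10 to 6.61) and 199.7 against 77.2 CPM (2.59-fold, 1.81 to 3.77). Egln3, a prolyl hydroxylase that marks hypoxia-inducible factors for breakdown and is itself induced by them, was 85.8 against 25.05 CPM (3.43-fold, 1.94 to 6.40) and 109 against 43.1 CPM (2.52-fold, 1.55 to 4.23). Ankrd37, an ankyrin-repeat gene induced by low oxygen, was 58.2 against 17.2 CPM (3.38-fold, 1.69 to 7.34) and 74.9 against 23.3 CPM (3.21-fold, 1.69 to 6.52), with 28.6% of its E11.5 member counts in 1 well. The collagen prolyl hydroxylases P4ha1 (1.94-fold, 1.56 to 2.41, and 1.74-fold, 1.43 to 2.11) and P4ha2 (1.82-fold, 1.40 to 2.37, and 2.49-fold, 1.98 to 3.15) were higher as well. Bnip3, a mitochondrial receptor of autophagy, was 1.48-fold (1.19 to 1.84) and 2.16-fold (1.77 to 2.66) higher. The glycolytic enzymes Pgk1 (1.55-fold and 1.76-fold) and Ldha (1.19-fold and 1.47-fold) and the growth factor Vegfa (1.27-fold and 1.76-fold) lay closer to 1. Genes found per well were close in members and matched wells (medians of 3999 and 3995 genes on the E12.5 plate and 3843 and 4076 on the E11.5 plate).

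The promoters of Foxd1 and of the 3 low-oxygen genes called on both plates show the letters by which hypoxia-inducible factors recognise DNA. The core ACGTG was searched on both strands in 300 bases, 250 before and 50 after each RefSeq start; it is in capitals in the sequences below, as ACGTG or as its reverse complement CACGT (mouse build GRCm38.p6, each 5′ to 3′ on the gene's strand).
Foxd1, chr13:98353995-98354294, plus strand: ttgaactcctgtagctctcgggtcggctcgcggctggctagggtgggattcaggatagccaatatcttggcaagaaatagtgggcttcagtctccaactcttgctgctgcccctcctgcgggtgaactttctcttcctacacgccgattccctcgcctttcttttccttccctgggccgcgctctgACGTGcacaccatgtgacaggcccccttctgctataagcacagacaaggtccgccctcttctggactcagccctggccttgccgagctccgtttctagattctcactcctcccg
Hk2, chr6:82774405-82774704, minus strand: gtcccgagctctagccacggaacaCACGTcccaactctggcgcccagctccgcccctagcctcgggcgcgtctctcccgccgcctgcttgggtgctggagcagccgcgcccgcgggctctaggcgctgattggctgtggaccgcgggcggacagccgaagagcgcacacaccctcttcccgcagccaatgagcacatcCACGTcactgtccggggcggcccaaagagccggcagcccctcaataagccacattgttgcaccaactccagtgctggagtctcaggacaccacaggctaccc
Egln3, chr12:54203825-54204124, minus strand: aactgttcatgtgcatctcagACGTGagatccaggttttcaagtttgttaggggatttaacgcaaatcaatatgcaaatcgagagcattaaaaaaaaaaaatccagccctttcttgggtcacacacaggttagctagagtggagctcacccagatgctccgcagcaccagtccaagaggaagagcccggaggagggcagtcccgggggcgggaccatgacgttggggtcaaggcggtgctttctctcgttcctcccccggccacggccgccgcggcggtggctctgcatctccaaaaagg
Ankrd37, chr8:45999801-46000100, minus strand: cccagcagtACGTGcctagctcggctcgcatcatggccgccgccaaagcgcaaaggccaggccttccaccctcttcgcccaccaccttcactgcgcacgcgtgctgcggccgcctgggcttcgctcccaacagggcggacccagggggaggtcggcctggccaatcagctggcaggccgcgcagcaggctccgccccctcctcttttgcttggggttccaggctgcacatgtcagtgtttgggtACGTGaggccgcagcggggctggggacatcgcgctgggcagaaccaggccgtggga
The core stood in 19.6% of all 32851 promoter windows, and by gene in 5886 of 27025 (21.8%). Of the low-oxygen list, which was written from known targets of that response, 14 of 19 genes with a RefSeq window held it. Of the genes called on both plates it was 5 of 16 higher and 8 of 31 lower genes with a window. Among further windows looked at, the core was absent from those of Shisa3, Ebf3, Cyp26b1 and Adm, and present in those of P4ha2 and Bnip3. The forkhead motif GTAAACA was found in none of the 4 windows printed and in 3.65% of all windows. A match is a match of letters, and binding was not measured.

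Genes lower in members included transcription factors, axon-guidance genes and matrix. Gata2, a zinc-finger GATA factor, was 67.4 against 183 CPM (2.72-fold lower, 1.91 to 3.93) on the E12.5 plate and 94.5 against 319 CPM (3.38-fold lower, 2.48 to 4.69) on the E11.5 plate. By well it ran from 0 through a median of 0 to 540 CPM in E12.5 members and from 0 through 78.4 to 829 CPM in matched wells, and from 0 through 0 to 496 CPM and from 0 through 162 to 1478 CPM on the E11.5 plate. Tbx3, a T-box factor of ureteric mesenchyme among other tissues, was 35.3 against 211 CPM (6.00-fold lower, 3.83 to 9.78) and 98.0 against 221 CPM (2.25-fold lower, 1.63 to 3.15). A Tbx3 count was found in 15 of 56 members and 32 of 56 matched wells, and in 19 of 49 and 37 of 48. Dach1, a transcriptional cofactor, was 2.89-fold (1.66 to 5.26) and 3.42-fold (1.89 to 6.55) lower.

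Gdf10, a ligand of the BMP family, was 9.20 against 76.7 CPM (8.34-fold lower, 3.57 to 23.8) and 46.3 against 179 CPM (3.87-fold lower, 2.49 to 6.21). It was counted in 5 of 56 members against 24 of 56 matched wells, and in 14 of 49 against 28 of 48. The ephrin receptor Epha4 was 21.5 against 97.1 CPM (4.52-fold lower, 2.50 to 8.75) and 37.4 against 118 CPM (3.16-fold lower, 1.91 to 5.44). Unc5b, a netrin receptor, was 4.99-fold (2.41 to 11.6) and 2.18-fold (1.06 to 4.74) lower. The semaphorins Sema3c (2.61-fold, 1.74 to 4.01, and 2.23-fold, 1.27 to 4.05) and Sema6d (2.14-fold, 1.00 to 4.85, and 2.23-fold, 1.15 to 4.53) and the atypical cadherin Fat3 (3.73-fold, 2.15 to 6.80, and 3.09-fold, 1.69 to 5.95) were also lower. Kcnd3, Slc38a1, Mmp16, Iigp1 and Tanc2 were lower too, with folds between 2.26 and 10.8 over both plates.

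Of 12 basement membrane genes 8 were below 1-fold on both plates, where 26.6% of all 6778 genes were, and the median log2 ratio was -0.44 and -0.36. Col15a1, a collagen of the basement membrane zone, was 113 against 478 CPM (4.21-fold lower, 3.26 to 5.50) and 223 against 478 CPM (2.14-fold lower, 1.73 to 2.67). Its relative Col18a1 was 21.5 against 133 CPM (6.21-fold lower, 3.50 to 11.8) and 24.96 against 50.2 CPM (2.01-fold lower, 1.02 to 4.14), with 64.3% of the E11.5 member counts in 1 well. The network collagen Col4a1 was 463 against 1123 CPM (2.42-fold lower, 2.12 to 2.78) and 443 against 750 CPM (1.70-fold lower, 1.45 to 1.99). Fibrillar matrix genes showed no such shift, with medians of 0.09 and 0.00 over 34 genes and none at least 2-fold on both plates in either direction.

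**Figure D3:**
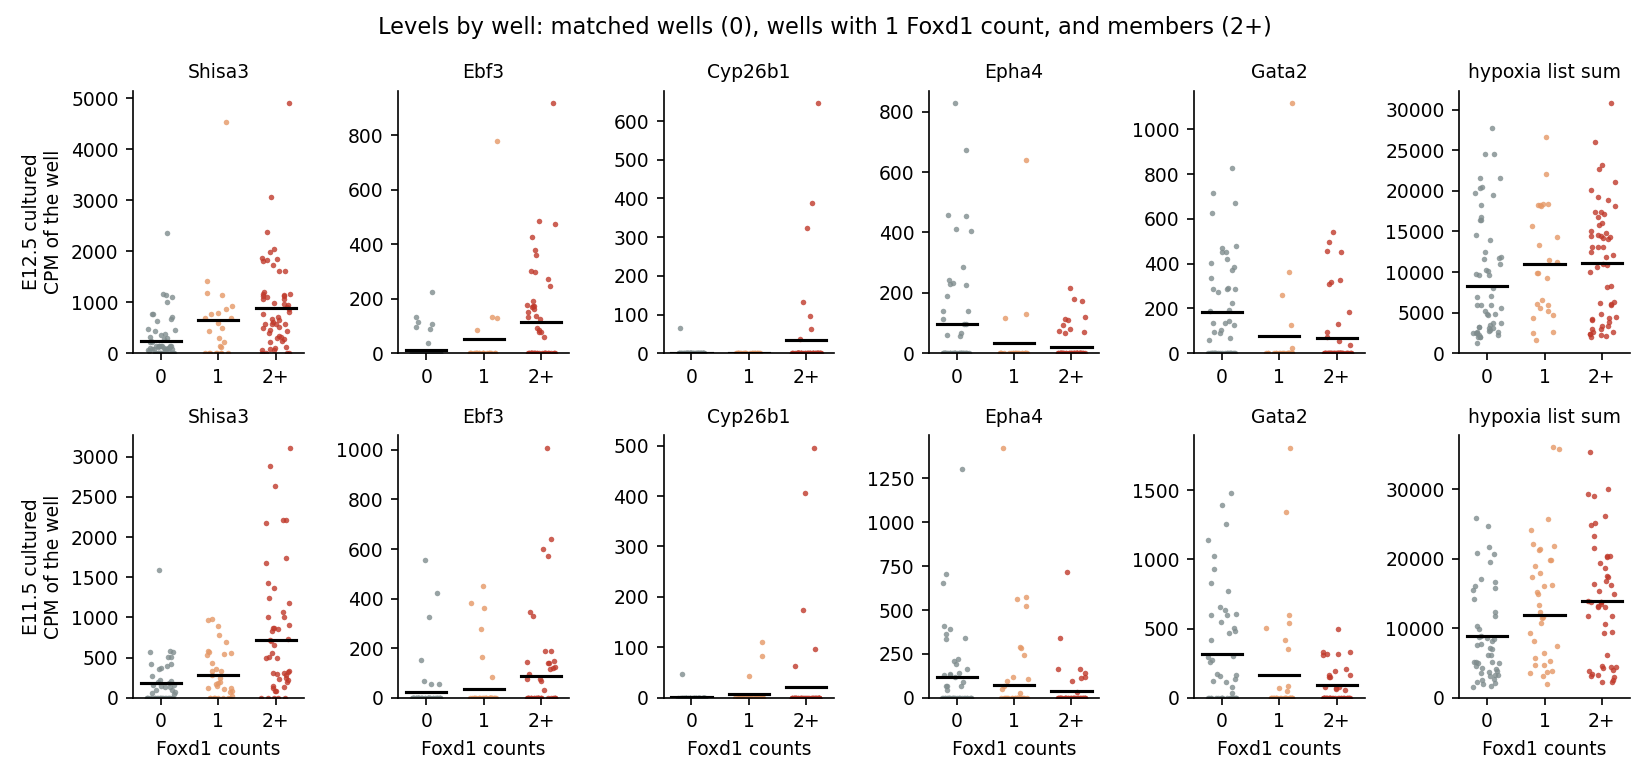
Level by well, in CPM, of Shisa3, Ebf3, Cyp26b1, Epha4, Gata2 and the summed low-oxygen list on the E12.5 (upper row) and E11.5 (lower row) cultured plates, for matched wells (0 Foxd1 counts), wells with 1 count and members with a match (2 or more). Points are wells and bars the pooled CPM; the Shisa3 bar stands at 892 and 725 CPM in members against 236 and 187 CPM in matched wells, and points of all groups overlap.

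The name of cortical stroma was checked against a list of its markers, none of them used by the rule. On the E12.5 plate 19 were measured, of which 3 reached 2-fold higher in members and 2 reached 2-fold lower (3.08% and 3.43% of all genes did), with a median log2 ratio of 0.42. On the E11.5 plate none of 17 reached 2-fold higher and 4 reached 2-fold lower (3.05% and 3.52% of all genes did), with a median of -0.16. Over the 16 measured on both, 3 were above 1-fold on both plates and 5 below on both (26.3% and 26.6% of all genes were). None was at least 2-fold higher on both and 1, Gdf10, at least 2-fold lower on both (0.31% and 0.59% of all genes were). Cxcl12, a chemokine, was 741 against 410 CPM (1.81-fold, 1.55 to 2.11) and 345 against 394 CPM (1.14-fold lower, 0.932 to 1.39). Igfbp5, another binding protein of insulin-like growth factors, was 1.26-fold (1.15 to 1.39) and 2.66-fold (2.40 to 2.94) lower. The markers do not set the members apart as cortical on both plates, so they are described here by Foxd1 alone.

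Ntn1, which encodes the guidance cue netrin-1 and is a marker of Foxd1 stroma, was 50.6 against 7.83 CPM on the E12.5 plate (6.46-fold, 2.51 to 21.2). On the E11.5 plate it fell short of 30 counts, at 33.9 against 12.6 CPM (2.70-fold, 1.09 to 7.59). A count was seen in 12 of 56 members and 5 of 56 matched wells, and in 9 of 49 and 6 of 48, so the gene was absent from the counts of most members.

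Of the medullary and ureteric stroma markers 6 of 16 were at least 2-fold lower and 1 was higher by as much in E12.5 members, where 3.43% of all genes were at least 2-fold lower and 3.08% higher. The median was -0.70, but it was 0.87 in the 18 pairs left without wells with 3 or more counts of other cell types' markers. In E11.5 members none of 15 reached 2-fold lower and 2 reached 2-fold higher (3.52% and 3.05% of all genes did), with a median of -0.37. Wnt4, a Wnt ligand of medullary stroma and of early nephrons, was 41.4 against 323 CPM (7.80-fold lower, 5.203 to 12.1) on the E12.5 plate and 116 against 153 CPM (1.31-fold lower, 0.942 to 1.85) on the E11.5 plate. Alx1, a homeobox gene of medullary stroma, was 15.3 against 90.8 CPM (5.92-fold lower, 3.002 to 13.0) and 37.4 against 48.5 CPM (1.29-fold lower, 0.705 to 2.41). Both genes were counted together in 1 of 56 members and 16 of 56 matched wells of the E12.5 plate, and in 4 of 48 and 7 of 48 of the E11.5 plate. Cdkn1c, an imprinted inhibitor of the cell cycle, was 1490 against 3517 CPM (2.36-fold lower, 2.19 to 2.55) and 1422 against 2650 CPM (1.86-fold lower, 1.71 to 2.03), although the medians by well were close on the E12.5 plate, at 1164 and 1003 CPM.

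**Figure D4:**
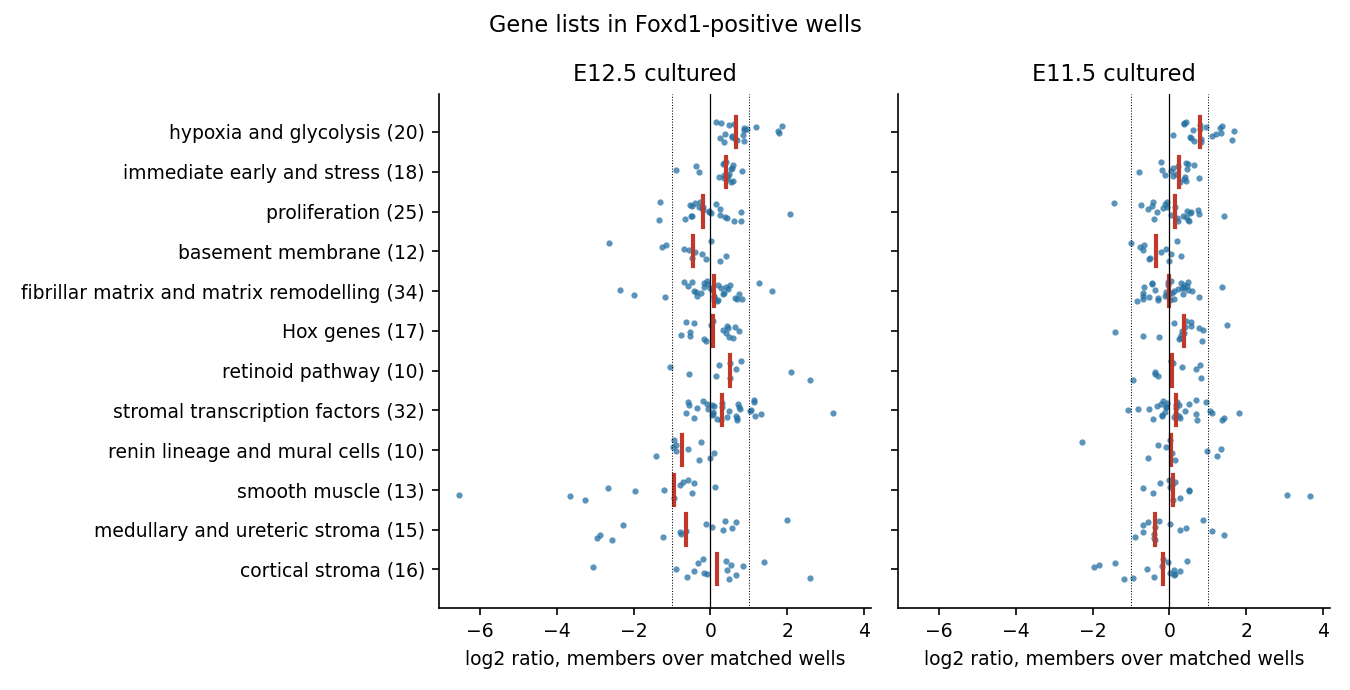
Log2 ratio of pooled CPM, members over matched wells, for the genes of 12 lists with at least 30 counts on both plates; points are genes, red bars the list's median and dotted lines 2-fold, and the number after each name counts its genes. The 20 low-oxygen genes lie to the right of 0 on both plates, while the smooth muscle and medullary lists reach far left on the E12.5 plate only.

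In the retinoid pathway, Aldh1a2, the enzyme that makes retinoic acid in kidney stroma, lay on different sides of 1-fold on the plates. It was 225 against 37.6 CPM in E12.5 members (6.00-fold, 3.88 to 9.66) and 55.3 against 106 CPM in E11.5 members (1.92-fold lower, 1.22 to 3.06). Over the settings tried its log2 ratio ran from 1.16 to 2.92 on the E12.5 plate. On the E11.5 plate it ran from -1.38 to -0.010, so the lower level there was not held at that size. By well the highest level was 1143 CPM in members and 340 in matched wells on the first plate, and 345 and 1040 on the second. Crabp1, which binds retinoic acid in the cytosol, was 93.5 against 21.9 CPM (4.27-fold, 2.36 to 8.26) and 57.0 against 73.6 CPM (1.29-fold lower, 0.793 to 2.12). Cyp26b1, which breaks retinoic acid down, was rare: it was counted in 7 of 56 members and 1 of 56 matched wells, and in 5 of 49 and 1 of 48, and did not reach 30 counts on either plate. Dhrs3, a retinaldehyde reductase that retinoic acid induces, was 1.42-fold (1.20 to 1.69) and 1.76-fold (1.45 to 2.14) higher, and the receptor Rara 1.60-fold (1.05 to 2.46) and 1.63-fold (1.08 to 2.49). Of 10 list genes measured on both plates 5 were above 1-fold on both and 1 below, beside 26.3% and 26.6% of all genes, with medians of 0.51 and 0.07.

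Smooth muscle genes were lower in E12.5 members, with 7 of 14 at least 2-fold lower, none higher by as much and a median of -1.09, beside 3.43% of all genes lower. In the 18 pairs without wells with 3 or more counts of other cell types' markers the median was -0.03, and in the 27 such pairs of the E11.5 plate -1.05. In E11.5 members none of 13 reached 2-fold lower and 2 reached 2-fold higher among all wells (3.52% and 3.05% of all genes did), with a median of 0.11. Acta2, the actin of smooth muscle, was 169 against 1614 CPM (9.58-fold lower, 7.86 to 11.8) and 639 against 593 CPM (1.08-fold, 0.923 to 1.251). A few wells held much of this: 1 matched well held 38.7% of the Acta2 counts of its group on the E12.5 plate, and the medians by well were 133 CPM in members and 207 CPM in matched wells. Myh11, the heavy chain of smooth muscle myosin, had 75.2% of its counts in matched E12.5 wells in 1 well and 84.4% of its counts in E11.5 members in 1 well.

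Igf1, a secreted growth factor, was 744 against 171 CPM (4.36-fold, 3.53 to 5.41) on the E12.5 plate and 459 against 911 CPM (1.99-fold lower, 1.71 to 2.32) on the E11.5 plate. Dlk1, an imprinted membrane protein of immature mesenchyme, was 1348 against 512 CPM (2.63-fold, 2.32 to 3.001) and 976 against 1009 CPM (1.03-fold lower, 0.916 to 1.16). Igf1, Osr2, Hoxd13 and Esr1 had led a cluster in an earlier analysis of these data, and so give no independent support here. On the E11.5 plate 3 of the 4 were at least 2-fold lower in members (median -2.05), beside 3.52% of all genes. There Osr2 was 49.9 against 188 CPM (3.77-fold lower, 2.47 to 5.95), Hoxd13 10.7 against 48.5 CPM (4.53-fold lower, 1.83 to 13.4) and Esr1 8.91 against 71.8 CPM (8.05-fold lower, 3.18 to 26.1). The level in matched wells differed between the plates as well, for Igf1 from 171 to 911 CPM. Whether the ratios differ between the plates beyond chance was not tested.

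**Figure D5:**
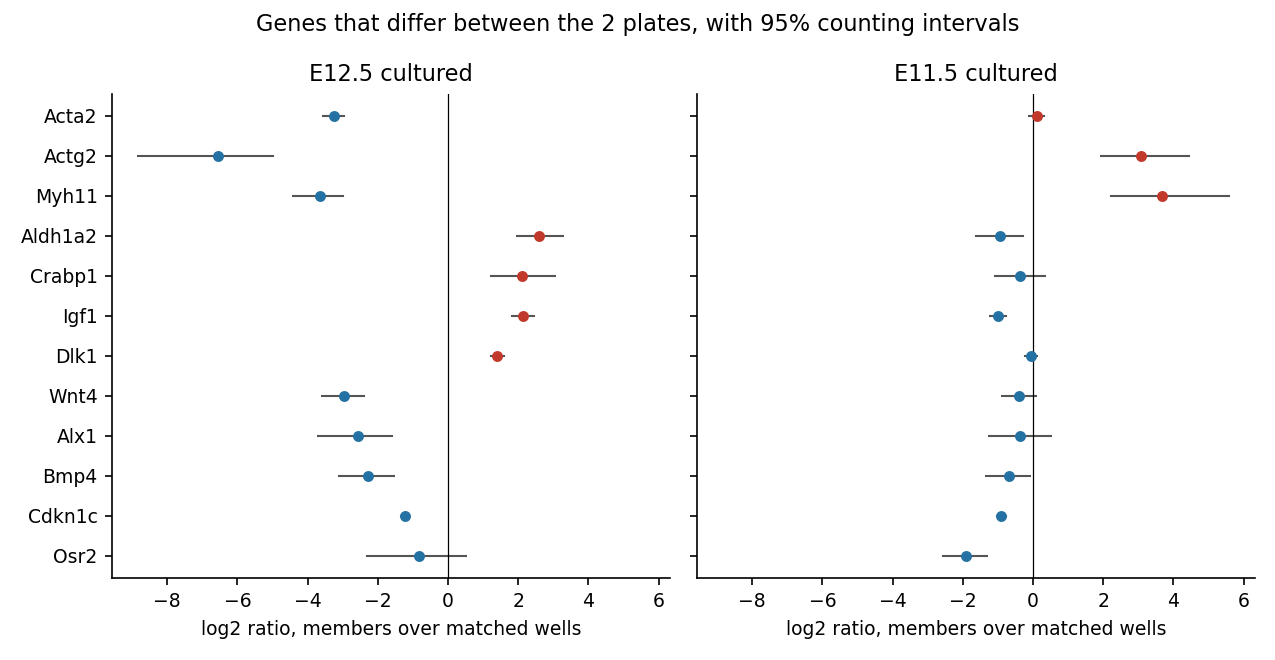
Log2 ratio of pooled CPM, members over matched wells, of 12 genes on the E12.5 and E11.5 cultured plates; points are ratios (red above 0, blue below) and lines their exact 95% counting intervals. Aldh1a2, Crabp1, Igf1 and Dlk1 lie right of 0 on the E12.5 plate and at or left of 0 on the E11.5 plate, and the smooth muscle genes Actg2 and Myh11 lie on opposite sides.

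A further 3 lists had no gene at least 2-fold on both plates in 1 direction. Of 17 Hox genes measured on both plates 9 were above 1-fold on both and 2 below, beside 26.3% and 26.6% of all genes, with medians of 0.06 and 0.38; Hoxc10, a gene of the posterior trunk, was 1.34-fold (1.05 to 1.71) and 1.49-fold (1.10 to 2.02) higher. Proliferation genes had medians of -0.19 and 0.14 over 25 genes, with 7 above 1-fold and 8 below 1-fold on both plates. At least 10 counts over 12 mitotic genes were found in 18 of 56 members and 11 of 56 matched wells, and in 16 of 48 and 9 of 48. Immediate early and stress genes, which dissociation can induce, had medians of 0.41 and 0.25 over 18 genes, with 13 above 1-fold on both plates, beside 26.3% of all genes, and none at least 2-fold on either. The interval of the pooled level covers counting error only, so small shifts of lists are values without a test.

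Markers of mature epithelium and endothelium were few in members, while those of some other cell types were counted in many wells. Of 15 further epithelial markers 7 were at 0 in E12.5 members and 8 in E11.5 members, and the list's median well level was 0 CPM on both plates, with highest levels of 247 and 425 CPM. Endothelial markers also had a median of 0 CPM in members of both plates, with highest wells of 674 and 340 CPM. Early nephron and podocyte genes, some of them also genes of mesenchyme, reached 3 counts in 30 of 56 members and 38 of 56 matched wells, and in 29 of 48 of each group on the E11.5 plate. Their medians by well in members were 291 and 378 CPM, with highest wells of 8344 and 16318 CPM. Cartilage genes reached 3 counts in 24 of 56 members against 20 of 56 matched wells, and in 18 of 48 against 7 of 48. Erythroid genes, at 0 in all wells compared on the E11.5 plate, reached 3 counts in 18 of 56 members and 22 of 56 matched wells of the E12.5 plate, with medians of 164 and 190.3 CPM. The macrophage list summed to 41.4 CPM in E12.5 members, with 5 of 12 genes at 0, and to 373 CPM in matched wells, where 86.6% of the counts came from 1 well. In E11.5 members it summed to 545 CPM against 219 CPM in matched wells, and 85.9% of the member counts came from 1 well. Without wells over 1000 CPM of endothelial, macrophage, erythroid, neural and muscle markers, 21 genes were again higher and 34 lower on both plates, and 10 of the 21 and 23 of the 40 were among them. A stricter limit of fewer than 3 counts of those markers, which deep wells pass less often, left 18 and 27 pairs. It called 0 of the 21 and 2 of the 40. A call also needs 30 counts in the pair, which fewer genes reach in so few wells. Ebf3 was not called, although its log2 ratios were 3.47 and 2.06. Those of Epha4 were -4.02 and -1.92. On the E12.5 plate Egln3, Igfbp3 and Sertad4 (log2 ratios of -0.12) and Il33 (-0.26) then lay slightly below 1-fold. Vcam1 did so on the E11.5 plate (-0.030). The part of other cells in the remaining results was not tested.

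Counts of nephron progenitor genes were common in members and in matched wells alike. At least 3 counts over the 14 genes of that list were found in 39 of 56 members and 33 of 56 matched wells on the E12.5 plate, and in 31 and 34 of 48 on the E11.5 plate, with medians by well of 352 against 306 CPM and 362 against 414 CPM. Six2, the factor that keeps nephron progenitors undifferentiated, was counted in 12 of 56 members and 8 of 56 matched wells on the E12.5 plate and in 10 of 48 and 5 of 48 on the E11.5 plate, and 1 member held 57.1% and 50% of its group's Six2 counts. Its pooled level was 99.9 against 48.5 CPM (2.06-fold, 1.32 to 3.26) and 32.1 against 21.5 CPM (1.49-fold, 0.679 to 3.39). Of 5 genes of that list measured on both plates 2 were above 1-fold on both and 1 below, beside 26.3% and 26.6% of all genes. Their medians were 1.04 and 0.50. Over the alternative settings the list's median reached -0.38 and -0.66, so its direction was not held. Without wells with a count of Six2, Cited1 or Meox1, 34 and 36 pairs were left, and 16 genes were higher and 19 lower on both plates, of which 7 and 10 were among the 21 and 40.

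The same rule on the uncultured E11.5 plate found 87 of 337 kept wells (25.8%, 21.2 to 30.8), and 62.6% (54.0 to 70.6) of its 139 wells with Col1a1 and no epithelial count, against 34.1% (26.9 to 41.9) and 19.1% (14.5 to 24.5) on the E12.5 and E11.5 cultured plates. These last shares have unlike bases: 175 of 337 kept uncultured wells fell below the Col1a1 limit, against 7 of 200 and 0 of 300 on the cultured plates. Before the Col1a1 and epithelial limits, at least 2 Foxd1 counts were held by 131 of 337 uncultured wells. On the E12.5 and E11.5 cultured plates it was 67 of 200 and 59 of 300. Only 29 wells there had no Foxd1 count, so 27 members could be matched. The balance of depth was looser than on the cultured plates, with median totals of 7655.5 counts in these members and 6299.5 in matched wells. Medians of genes per well were 3672 and 3216. Of 3953 genes measured, 117 (2.96%) were at least 2-fold higher in these members and 106 (2.68%) at least 2-fold lower. Of the 21 genes higher on both cultured plates 5 were measured before culture, and Shisa3 was the 1 at least 2-fold higher, at 834 against 396 CPM (2.11-fold, 1.64 to 2.72). Of the 40 lower genes 9 were measured, and 4, Gata2, Fat3, Sema3c and Kcnk2, were at least 2-fold lower. Gata2 was 115 against 361 CPM (3.13-fold lower, 2.04 to 4.90). Ebf3 lay the other way before culture, at 316 against 551 CPM (1.74-fold lower, 1.31 to 2.33), with 66.8% of the counts of wells without Foxd1 in 1 well. Ntn1 was 115 against 40.1 CPM (2.88-fold, 1.34 to 6.87). The low-oxygen list summed to 4245 CPM in uncultured members and 3812 CPM in their matched wells, with a median log2 ratio of 0.03 over 8 measured genes.

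Within members, the amount of Foxd1 was not followed by every gene called. Shisa3 was 698 CPM in E12.5 members with exactly 2 Foxd1 counts and 945 CPM in those with 3 or more, and 619.5 and 777 CPM on the E11.5 plate; with the 1 deep unmatched well the last value was 940.5 CPM. Ebf3 was 29.0 and 138 CPM on the E12.5 plate but 124 and 71.9 CPM on the E11.5 plate. Hk2 was 116 and 91.3 CPM, and 178 and 210.5 CPM. Wells with 2 counts numbered 13 and 19, and no test was made.

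Counts of the added reporter sequences were low. The tdTomato sequence, which is transcribed from ROSA26 once Cre has removed a stop, was counted in 21 of 56 E12.5 members and 30 of 56 matched wells (61.3 against 75.1 CPM, 1.23-fold lower, 0.789 to 1.91), and in 17 of 48 and 20 of 48 on the E11.5 plate (57.0 against 57.4 CPM, 1.01-fold lower, 0.597 to 1.70). The EGFP-IRES-Cre sequence was 47.5 against 42.3 CPM (1.12-fold, 0.649 to 1.96) and 35.7 against 28.7 CPM (1.24-fold, 0.611 to 2.56). Neither sequence thus differed beyond counting error between members and matched wells. The neomycin resistance sequence, NeoR, was 101 against 28.2 CPM on the E12.5 plate (3.59-fold, 2.11 to 6.43) and 94.5 against 62.8 CPM on the E11.5 plate (1.504-fold, 0.963 to 2.38); the labels do not say which allele carries it.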

How the data were processed

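Single cells of 3 SORT-seq plates were analysed, 1 per group, with 327 wells labelled as single cells on each cultured plate. The authors deposited 1 table of expected counts per plate; the values are transcript counts corrected for repeated molecular identifiers, so 1.26% (E12.5 cultured), 1.18% (E11.5 cultured) and 1.65% (E11.5 uncultured) of those above 0 were not whole. Every deposited count matched that correction for 4096 possible identifiers within 0.1. Per the submitters' processing notes, STAR 2.6.1a, featureCounts 1.5.2 and build GRCm38.p5 were used. The entry for reads without a gene held 4.27%, 4.26% and 4.21% of counts and was left out.

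CPM used the nuclear-encoded total. Kept wells had medians of 9212, 8993 and 6732 counts, which sets the precision; no doublet caller was run. Members in falling order of depth each took the unused well without Foxd1 nearest in depth, if the deeper total exceeded the other by at most 25%. Ratios of summed counts were taken where the pair held at least 30 counts, with exact intervals at the 95% level; at least 2-fold was called higher or lower, and a gene at 0 was set to a floor of 3 counts. No p-value was computed, since cells of 1 plate are not replicates. The code was tested on simulated data (scipy 1.17.1, numpy 2.4.6, pandas 2.3.3 and matplotlib 3.10.9 under python 3.11.15).

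The members and the 28 gene lists were chosen with earlier results of these data known. Genes named are list genes at least 2-fold on both plates in 1 direction, and the 15 higher and 15 lower genes with the largest smaller ratio among those spread over wells; Nr2f2, Hoxc10, Dlk1, Igf1, Foxc2, Ebf1, Osr1, Twist1, the other low-oxygen and smooth muscle genes, the added sequences and genes with counts in few wells were named after their values were seen. Promoter sequences came from RefSeq. The alternatives were other Foxd1 limits, no matching, equal weight of wells, other count minimums, removal of deep wells and of wells with other markers, another total, and matching on the low-oxygen list.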

Additional observations from a re-analysis of the deposited data

Results flagged for a closer look

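For 8 genes of the lists the ratio of members to matched wells was at least 2-fold on both cultured plates but in opposite directions, with intervals that did not include 1. Of all 6778 genes measured on both plates 19 (0.28%) were at least 2-fold in opposite directions. The difference between the plates was not tested. Smooth muscle and mural genes were 3 of them. Myh11 had log2 ratios of -3.65 on the E12.5 plate and 3.67 on the E11.5 plate, with 75.2% of the counts of matched E12.5 wells and 84.4% of those of E11.5 members in 1 well each. Actg2 had -6.55 and 3.07, with 68.6% and 57.6% in 1 well. Rgs5, a regulator of G-protein signalling in pericytes, had -1.41 and 1.24.

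The complement genes of macrophages were also opposite, C1qb with -3.73 and 3.27 and C1qc with -3.40 and 2.46. Of C1qb counts 77.0% in matched E12.5 wells and 89.7% in E11.5 members came from 1 well, and of C1qc counts 92.7% and 88.7%.

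Lef1, a transcription factor of Wnt signalling, had -2.88 and 1.42. Twist2, a mesenchymal transcription factor, had 1.07 and -1.09. Spock2, a matrix proteoglycan, had 1.21 and -1.44, with 61.8% of the counts of E12.5 members in 1 well.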

How the results depend on the processing

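No paired analysis was possible because each group is 1 plate, so no well or plate of a group pairs with one of another.

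Counts of genes moved most with the count minimum. With at least 10 counts 643 genes were higher and 781 lower on the E12.5 plate, 656 and 833 on the E11.5 plate, and 80 and 130 on both; with at least 100 counts the numbers were 35 and 54, 33 and 30, and 3 and 4. Without matching, 548 genes were lower on the E11.5 plate and 83 on both, of which 23 were among the 40, while 11 of the 21 higher genes were called again. Equal weight of wells gave 38 higher genes on both plates, 17 of them among the 21. Without wells with 3 or more counts of other cell types' markers (18 and 27 pairs), 77 genes were higher and 110 lower on the E12.5 plate, 132 lower on the E11.5 plate, and 5 higher and 4 lower on both; the medians on the E12.5 plate were -0.18 for the cortical and -0.41 for the low-oxygen list, 0.87 for medullary, -0.03 for smooth muscle and -0.37 for nephron progenitor genes, and on the E11.5 plate -1.05 for smooth muscle and -0.66 for nephron progenitor genes. Log2 ratios that fell on the other side of 0 there were -0.12 for Egln3, Igfbp3 and Sertad4 and -0.26 for Il33 on the E12.5 plate. On the E11.5 plate they were -0.030 for Vcam1 and -2.35 for Myh11. Egln3, Igfbp3 and Sertad4 shared 1 value, as genes with equal counts on both sides do, which places them near 1-fold. Il33 and Vcam1 also lay close to 1-fold, so these values are not reversals of direction. Fewer pairs are part of that setting; the cause was not tested further. Without wells with Six2, Cited1 or Meox1, 156 genes were higher on the E12.5 plate and 19 lower on both. The low-oxygen median on the E11.5 plate was 1.52 with at least 3 Foxd1 counts and 0.11 with matching on that list, a setting chosen after seeing the data in which Ankrd37 (-0.057) and Nxph4 (-0.26) changed sign on the E11.5 plate. At least 1 or 3 Foxd1 counts gave 84 or 30 members on the E11.5 plate, and with at least 3 counts 11 of the 21 higher and 16 of the 40 lower genes were called again.

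Of 34 named genes called on both plates, 27 kept 1 direction in every value that 11 alternatives gave on each plate, and 6, Podxl, Ebf3, Icam1, Gdf10, Epha4 and Unc5b, stayed at least 2-fold in every such value. Podxl gave only 21 of 24 possible values and Unc5b 23. Podxl was not spread over wells, with all counts of E12.5 members in 1 well. Ebf3 was known from an earlier analysis of these data. Depth limits rare genes: Sema6d, with 34 counts in its E12.5 pair, was 2.14-fold lower with an interval that began at 1.00.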
